A study of Drosophila melanogaster with 4 samples.

Results

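The genes of the proteasome were followed in RNA that had been immunoprecipitated with LARK and in total RNA of the same brain lysates. The members are the genes whose array probe set carries 1 annotated symbol that begins with Prosalpha, Prosbeta, Rpt or Rpn and goes on with a number. This rule uses names only, and it found 39 of the 10843 genes that the array annotates in this way. Of these, 26 encode subunits of the standard proteasome, 12 of them in the core particle and 14 in the regulatory particle, and 13 are paralogs, which are second copies of a subunit gene with a suffix such as T or R in their symbol. No probe set chosen by this rule carried Prosbeta1, Rpt1, Rpt6, Rpn9 or Rpn10, and those subunits are not analysed here.

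The proteasome is the large protease that destroys proteins tagged with ubiquitin. Its core particle is a barrel of stacked rings: the outer alpha rings form the gate through which a substrate enters, and the inner beta rings carry the cutting sites on their inside. The regulatory particle caps the barrel with a base, whose Rpt ATPases unfold the substrate and thread it into the core, and a lid, where the ubiquitin chain is cut off. All of these subunits are needed together in every cell, and in neurons the same machine also turns over synaptic and clock proteins.

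LARK is an RNA-binding protein of the fly that helps to set the time of day at which adults emerge. Brains of Canton-S wild-type pharate adults, flies at the end of metamorphosis, were dissected by hand by day from cultures kept at 25 °C, and about 1000 brains were pooled for each of the 2 independent experiments. Each lysate gave a LARK IP, precipitated with an affinity-purified antibody under mild washing, and a total RNA sample set aside before the IP, and each of the 4 samples was hybridised to 1 array. No sample here was precipitated without the antibody, so a ratio of IP to total RNA has no measured background of its own.

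Every value below is a MAS5 signal, the brightness of a probe set in arbitrary units, which the authors scaled to the same target on each array. The arrays were alike in this scale, with a median signal of 2.7 to 2.8 and 35% to 37.1% of probe sets above a background of 4.49, the 95th percentile of the 23 control probe sets for transcripts that the sample should lack. Brightness depends on the probes as much as on the RNA, so levels of RNA were compared within a gene, and signals set side by side between genes describe brightness only. Of the 6 neuronal markers found on the array, futsch, fne and Rbp9 were above background on all arrays and brp on none. Of the 7 testis markers, betaTub85D was above background on all arrays and 3 were on none; the highest signals of Mst84Da, dj and Mst87F were 8.2, 6.3 and 5.1.

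The first question was whether transcripts of the proteasome were enriched by the LARK IP. None of them passed the test in either direction. With limma, fitted over the 3492 brightest probe sets with the lysate as a block and Benjamini-Hochberg adjustment, 0 of the 22 subunit genes that were bright enough to be tested were higher in the IP, where 2.69% of all tested probe sets were, and 0 were lower, where 0.172% were. Even without adjustment 0 of the 22 had a p under 0.05, which 419 of all tested probe sets had, and their adjusted p ran from 0.450 to 0.991. The standard error of a single log2 ratio was 0.29 to 0.63, and the 95% interval of all 22 held 0. For 12 of them the upper bound lay under 1 on the log2 scale, a ratio of 2, and for 13 the lower bound lay above -1, so a larger ratio was outside the interval for those genes and inside it for the others.

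The study's criterion joined a detection call, a change p-value and a 2-fold signal ratio, of which only the ratio could be taken over here, so the counts that follow are not those of the study's rule. Counted without a pseudocount, and only where the brighter side lay in the top 15% of its array in both replicates, 8.32% of 1551 probe sets had the IP signal 2-fold or more above total RNA in both replicates, and 0 of the 7 subunit genes bright enough to be counted were. In the other direction 1.78% of 1514 probe sets and 0 of 4 subunit genes met the rule in both replicates. With brightness and ratio asked of replicate 2 alone, only Prosalpha6 and Rpn13 of the members passed, both with the lower signal in the IP. Of all 13966 probe sets, 284 did so in that direction. Neither gene is among the 4 above, since their replicate 1 total RNA signals of 7.1 and 9.1 lay under the top 15% floor of 9.4.

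**Figure D1:**
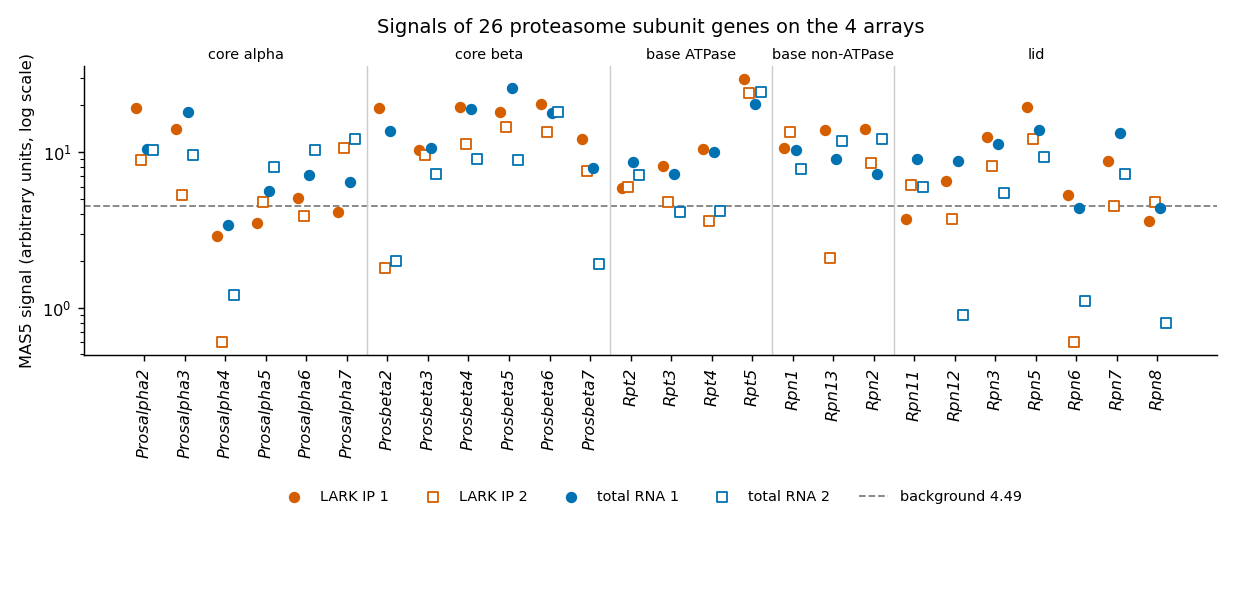
MAS5 signal (log axis) of the 26 subunit genes on each of the 4 arrays, ordered by their place in the proteasome; filled circles are replicate 1, open squares replicate 2, orange the LARK IP, blue total RNA, and the dashed line is the background of 4.49. The IP and total RNA symbols of most genes interleave, Rpt5 is bright on every array, and Prosbeta2 drops from 19.4 and 13.8 in replicate 1 to 1.8 and 2.0 in replicate 2.

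Genes of the alpha ring mostly gave the lower signal in the IP of each lysate. The log2 ratio of IP to total RNA was negative in both replicates for 5 of the 6 alpha genes (83.3%), 4 of them tested, where 30.7% of all tested probe sets were negative in both. Its median was -0.46 (-0.38 in replicate 1 and -0.58 in replicate 2), while that of all tested probe sets was -0.04. No alpha gene passed the test singly, and a median over genes of 1 complex, read from the same 4 arrays, has no error beyond that of the 2 replicates.

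Prosalpha6 gave 5.1 and 3.9 in the IPs and 7.1 and 10.3 in total RNA, in the order of the replicates. Both IP signals thus lay below both total RNA signals, and the mean log2 ratio was -0.83 ± 0.58 (SD, n = 2; limma adjusted p = 0.578). Prosalpha5 showed the same order of groups, with 3.5 and 4.8 in the IPs against 5.6 and 8.0, and its ratios were close to each other at -0.57 and -0.65. Prosalpha3, whose tail closes the gate of the barrel in yeast, gave 14.2 and 5.3 in the IPs and 18.1 and 9.6 in total RNA, so its groups overlapped while each lysate had less in the IP (-0.33 and -0.77, adjusted p = 0.635). Prosalpha7 gave 4.1 and 10.6 against 6.4 and 12.1, again with the lower value in the IP of each lysate and with overlapping groups; its second probe set gave 2.6 and 1.9 against 4.7 and 1.9, equal in replicate 2. Prosalpha4 could not be tested: its signals of 2.9 and 0.6 in the IPs and 3.4 and 1.2 in total RNA were under background on every array. Prosalpha2 was the exception, at 19.3 and 8.9 in the IPs and 10.5 and 10.4 in total RNA, with ratios of opposite sign (0.83 and -0.21).

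Both IP signals lay below both total RNA signals in 17.4% of all tested probe sets, and above them in 15.4%. Among the 22 tested subunits the first order was found in 3, Prosalpha5, Prosalpha6 and the ATPase Rpt2, and the second in 1, the base subunit Rpn1. Neither share of the members was above that of all tested probe sets.

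None of the 6 beta ring genes was negative in both replicates. Only 2 were positive in both, and 4 had opposite signs (66.7%, against 40.8% of all tested probe sets). The median log2 ratio of the beta ring was 0.17 (0.12 and 0.34), 0.63 above that of the alpha ring. The alpha ring lay under the beta ring in each replicate, by 0.50 and 0.92. This difference was noticed in the data and has no test here. It kept its sign, at -1.20 to -0.28, when any 1 array was left out, with both ends set by a total RNA array. With an array left out there was no lysate block, so these values also hold part of the difference between lysates.

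Prosbeta7, which carries no cutting site, had the highest mean ratio of all subunits. It gave 12.2 and 7.6 in the IPs and 7.9 and 1.9 in total RNA. Each lysate had more in the IP, and the groups overlapped because the replicate 1 total RNA was brighter than the replicate 2 IP. The log2 ratio was 0.58 and 1.64, with a mean of 1.11 ± 0.75 (SD, n = 2) and a 95% interval from -0.07 to 2.29, and with an unadjusted p of 0.0619 and an adjusted p of 0.450 in limma it did not pass. The larger ratio rests on a total RNA signal of 1.9, which is under background.

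Prosbeta5 encodes the subunit that cuts after hydrophobic residues. Its signals were 18.2 and 14.6 in the IPs and 25.8 and 8.9 in total RNA, so the total RNA samples were the highest and the lowest of the 4 and the ratios had opposite signs. Prosbeta2, which cuts after basic residues, gave 19.4 and 1.8 in the IPs against 13.8 and 2.0, a difference between lysates and not between IP and total RNA. The remaining beta genes have no cutting site. Prosbeta6 gave 20.4 and 13.6 against 17.8 and 18.2, and Prosbeta4 gave 19.6 and 11.3 against 18.9 and 9.0. Prosbeta3 stayed between 7.2 and 10.7 on all arrays, with ratios of -0.04 and 0.38. A second probe set for Prosbeta6 was dimmer, at 6.8 and 6.7 in the IPs and 5.2 in both total RNA samples, and had a positive ratio in both replicates (0.33 ± 0.01, SD, n = 2) where the brighter one had opposite signs, so the probes of this gene did not give 1 direction.

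**Figure D2:**
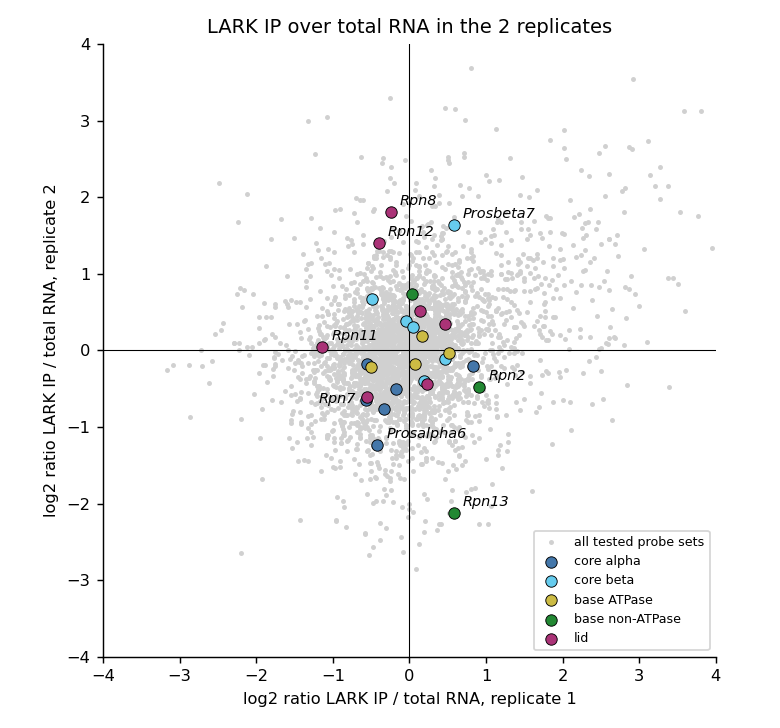
Log2 ratio of LARK IP to total RNA in replicate 1 (x axis) and replicate 2 (y axis) for the 26 subunit genes, coloured by their place in the complex, over all 3492 tested probe sets in grey; 3 grey points lie outside the axes. The subunits sit around the origin, 5 of the 6 alpha genes fall in the lower left quadrant, and 13 of 26 subunits lie in a quadrant where the replicates disagree in sign.

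In the base of the regulatory particle the mean log2 ratios of the 4 ATPases lay between -0.36 and 0.24. Rpt5 was bright on all arrays, with 29.7 and 23.9 in the IPs and 20.5 and 24.4 in total RNA, and its log2 ratio of 0.24 ± 0.39 (SD, n = 2) had the smallest standard error of the tested members, with an interval from -0.41 to 0.90. Rpt3 gave 8.2 and 4.8 against 7.2 and 4.1, nearly the same ratio in each lysate (0.17 and 0.19). Rpt4 gave 10.5 and 3.6 against 10 and 4.2 and had the highest adjusted p of the members, 0.991. Rpt2, an ATPase whose tail opens the gate of the core in yeast, gave 5.9 and 6.0 in the IPs and 8.7 and 7.1 in total RNA. Its groups did not overlap, and with a log2 ratio of -0.36 ± 0.20 (SD, n = 2; adjusted p = 0.832) it did not pass the test.

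The base also holds Rpn1, Rpn2 and Rpn13, scaffolds and docking sites for ubiquitin and for the factors that bring it. Rpn1 gave 10.6 and 13.5 in the IPs and 10.3 and 7.8 in total RNA, the one tested member whose IP signals both lay above total RNA. The margin in replicate 1 was a log2 ratio of 0.04, and the adjusted p was 0.776. Rpn2 gave 14.2 and 8.5 against 7.2 and 12.2, so that its replicates pointed in opposite directions (0.91 and -0.48).

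Rpn13, a ubiquitin receptor that also binds a deubiquitinating enzyme, had the largest disagreement between replicates of the 26 subunits. Its IP signal was 14 in replicate 1 and 2.1 in replicate 2, while total RNA gave 9.1 and 11.8. The replicate 2 IP alone was low, under background, and the log2 ratios were 0.58 and -2.12 (mean -0.77 ± 1.91, SD, n = 2; adjusted p = 0.711).

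In the lid, Rpn5 and Rpn3, scaffold subunits of the same fold, had positive ratios in both replicates. Rpn5 gave 19.6 and 12.1 in the IPs and 14 and 9.3 in total RNA (0.41 ± 0.08, SD, n = 2; adjusted p = 0.718), and Rpn3 gave 12.5 and 8.2 against 11.3 and 5.5. Rpn7, another scaffold, went the other way in both replicates, with 8.8 and 4.5 in the IPs against 13.4 and 7.3, which made its log2 ratio -0.59 ± 0.03 (SD, n = 2). In spite of that small SD its adjusted p was 0.657, since limma takes most of its spread from other probe sets of the same brightness. Rpn11, the lid protease that cuts off the ubiquitin chain, gave 3.7 and 6.2 against 9.1 and 6.0, with a low value in the replicate 1 IP only (-1.14 and 0.04).

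The other lid genes were too dim for the test. Rpn8, the inactive partner of Rpn11, gave 3.6 and 4.8 in the IPs and 4.4 and 0.8 in total RNA. Rpn12 gave 6.5 and 3.7 against 8.8 and 0.9, and Rpn6 gave 5.3 and 0.6 against 4.4 and 1.1. The ratios of Rpn8 and Rpn12 in replicate 2, 1.81 and 1.40, rest on total RNA signals far under background, and in replicate 1 both were negative (-0.24 and -0.40).

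Core and regulatory particle were then set side by side. The median log2 ratio was -0.01 in the 12 core genes (-0.11 and -0.19 in the replicates) and 0.20 in the 14 regulatory genes (0.10 and 0.01), so the core lay 0.20 lower, and by 0.21 and 0.20 in the single replicates. This difference shrank to -0.09 over the 11 tested genes of each particle. Over the 6 core and 7 regulatory genes that were above background on all arrays it was -0.13 in replicate 1 and 0.08 in replicate 2, so it had no fixed sign there. It also ran from -0.31 to -0.02 when 1 array was left out, in comparisons without the lysate block. No test of this difference was run.

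In signal, the core genes had medians of 13.2 and 8.2 in the IPs and 10.6 and 8.9 in total RNA, against 9.7 and 5.4 and 9.1 and 6.5 for the regulatory genes. The core median was the higher on each of the 4 arrays, by 0.45 and 0.62 on the log2 scale in the IPs and by 0.22 and 0.46 in total RNA. As different probes are compared here, this describes brightness and says nothing of which particle had more RNA.

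The ratios of 1 replicate told little of the ratios of the other. Across the 26 subunits, which share arrays, Pearson's r between the log2 ratios of replicates 1 and 2 was -0.04; over the 22 tested ones it was 0.07, and across all tested probe sets 0.29. The subunits had opposite signs in the replicates in 13 genes (50%), were positive in both in 6 and negative in both in 7; signs were opposite in 45.5% of the 22 tested subunits and in 40.8% of all tested probe sets. The median ratio of the 26 subunits was 0.13, with 0.04 in replicate 1 and -0.14 in replicate 2. It moved between -0.35 and 0.40 when any 1 array was left out, both of these without a replicate 2 array. With an array left out there was no lysate block, so part of the difference between the lysates enters these values.

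Many subunit genes gave the lower signal in the second lysate in both IP and total RNA. In replicate 2 the signal was lower in both the IP and the total RNA for 15 of the 26 subunits (57.7%) and for 12 of the 22 tested ones (54.5%), while 30.4% of all tested probe sets, and 28.7% of the 2786 with a mean signal in the range of the tested subunits, did so. The median log2 ratio of replicate 2 to replicate 1 was -0.65 in the IPs and -0.63 in total RNA over the subunits, and 0.02 and 0.01 over all tested probe sets. The summed signal of the 26 genes was 302.4 and 284.4 in the IP and total RNA of replicate 1, and 195.1 and 201.3 in those of replicate 2. This pattern was seen in the data before it was counted, and as IP and total RNA of a replicate come from 1 lysate, it rests on 1 pool of brains against another. Lysate, array day and replicate cannot be told apart, and in whole brains neither can fewer cells of a type and less RNA per cell.

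**Figure D3:**
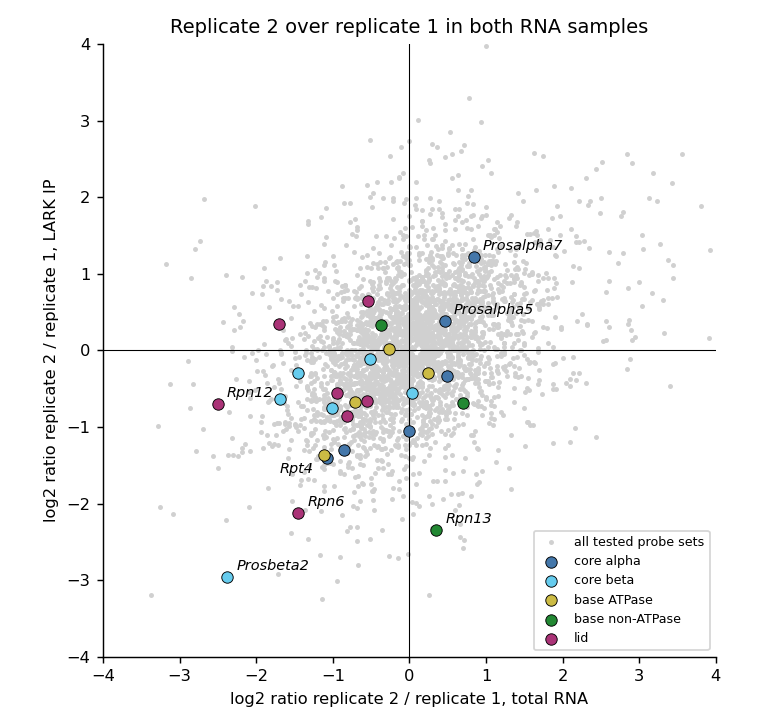
Log2 ratio of replicate 2 to replicate 1 in total RNA (x axis) and in the LARK IP (y axis) for the 26 subunit genes, coloured by their place in the complex, over all 3492 tested probe sets in grey, of which 1 lies outside the axes. The lower left quadrant holds 15 subunits, with Prosbeta2 at -2.38 and -2.96, and the upper right quadrant holds Prosalpha5 and Prosalpha7.

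Prosbeta2 was the member with the largest such difference, with log2 ratios of replicate 2 to replicate 1 of -2.96 in the IP and -2.38 in total RNA. It was the 1 tested member called lower in replicate 2 by the replicate term of the limma fit (adjusted p = 0.0266), where 1.89% of all tested probe sets were. That p treats the IP and total RNA of a lysate as separate measurements and is therefore too small. The whole beta ring shared the direction in the IPs, where 6 of 6 genes were lower in replicate 2, and 5 of 6 were lower in total RNA, with Prosbeta6 level at 17.8 and 18.2. The lid genes were lower in replicate 2 in total RNA in 7 of 7 cases and in the IP in 5. Prosalpha5 and Prosalpha7 were the 2 subunits with a higher signal in replicate 2 on both kinds of array, Prosalpha7 with 10.6 against 4.1 in the IPs and 12.1 against 6.4 in total RNA. A second, dimmer probe set for Prosalpha7 went the other way, with 1.9 against 2.6 in the IPs and 1.9 against 4.7 in total RNA, so the probes of this gene did not give 1 direction.

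Several other measures moved between the replicates. The probe set for the 3′ end of the small ribosomal RNA gave 419.7 and 250.7 in the IP and total RNA of replicate 1 and 1372.9 and 627 in those of replicate 2. That for the 3′ end of GAPDH, a glycolytic enzyme used as an array control, gave 91.1 and 109.6 in replicate 1 and 48.5 and 51.4 in replicate 2. That for its 5′ end gave 4.9 and 11.5 against 0.2 and 5.8. Not all controls moved as far: the 3′ end of actin gave 22.2 and 17.6 against 16.7 and 17.4. The 3′ end of eIF-4a gave 511.7 and 356.6 against 398.1 and 338.3, but its middle gave 96.7 and 108.9 against 39.5 and 49.5. The sum of the 6 neuronal markers found on the array went the other way from the subunits. It was 88.1 and 33.4 in the IP and total RNA of replicate 1 and 160.3 and 103.3 in replicate 2. Much of it came from futsch, with 45.3 and 10.6 against 95.9 and 52.3. Of the 6, 4 were higher in both kinds of sample and 0 lower in both. In total RNA nSyb fell from 6.9 to 1.4, and in the IPs brp fell from 3.7 to 1.3. The 3 photoreceptor markers summed to 46.1 and 69.0 in replicate 1 and to 84.0 and 130.2 in replicate 2, and all 3 were higher in both. The 5 glial markers were split, with 1 lower and 1 higher in both: Gs2 gave 65.9 and 48.8 in the IP and total RNA of replicate 1 and 35.5 and 16.3 in those of replicate 2, whereas repo gave 14.3 and 14.9 against 23.3 and 22.5. Their sums were 151.6 and 118.9 against 113.3 and 102.8. Of the 4 muscle markers 3 were lower in both, with sums of 51.9 and 48.2 against 34.0 and 36.6. Mlc2 gave 37.1 and 35.8 against 16.3 and 18.1. Tm2 and up changed little in total RNA, with 4.6 against 4.5 and 6.1 against 5.5. Act88F went the other way, with 0.1 and 1.7 in the IP and total RNA of replicate 1 and 8.7 and 8.5 in those of replicate 2. Of the 7 testis markers 4 were lower in both, with sums of 21.7 and 26.9 against 15.7 and 17.5, and of the 5 fat body and 3 haemocyte markers 1 each was. None of these markers was listed at 0, but neither was any other probe set, the lowest signal being 0.1. The markers brp, Fbp2, NimC1, bam, can and sa were above background on no array. The part of any of these measures in the lower subunit signals was not tested.

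The related lists differed in how far they shared this direction. Of all probe sets, dim ones included, 25.0% were lower in replicate 2 in both kinds of sample. In the COP9 signalosome, a relative of the lid that acts on cullin ligases, 6 of 9 genes were (66.7%), with a median log2 ratio of replicate 2 to replicate 1 of -0.66 in the IPs and -0.70 in total RNA, at signals mostly under background. The chaperonin CCT, another large ring complex, had medians of -0.40 and -0.64, with 3 of 8 genes lower in both (37.5%). Ubiquitin ligases had 10 of 23 lower in both (43.5%; medians -0.10 and -0.18), and shuttle and extraction factors 5 of 11 (45.5%; medians -0.13 and -0.32). The share was near that of all probe sets in the assembly factors and regulators with 4 of 13 (30.8%; medians 0.39 and -0.12), in ubiquitin with its activating and conjugating enzymes with 3 of 12 (25.0%; medians -0.28 and 0.04) and in the deubiquitinating enzymes with 4 of 18 (22.2%; medians -0.07 and 0.02).

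**Figure D4:**
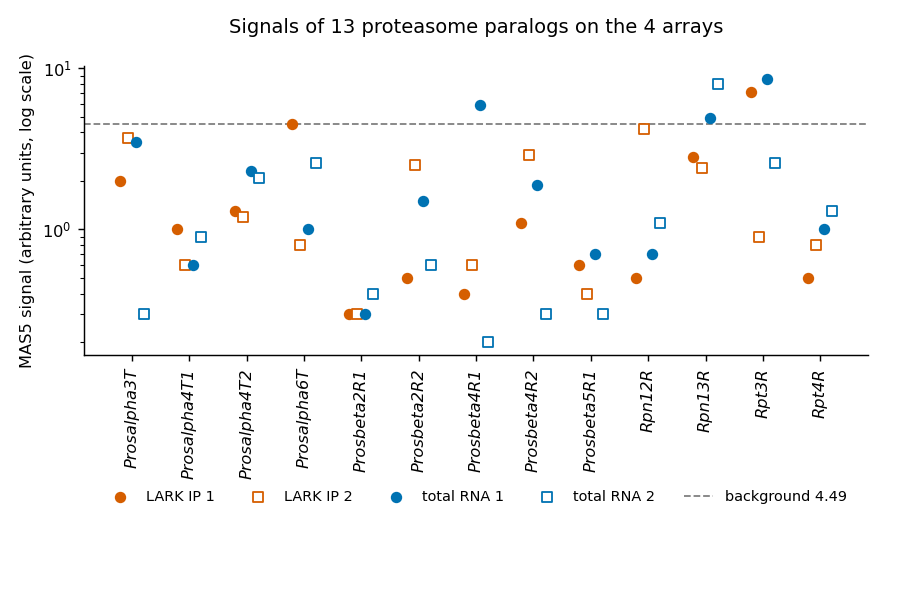
MAS5 signal (log axis) of the 13 paralogs on each of the 4 arrays, with the symbols used for the subunits; the dashed line is the background of 4.49. Most points lie under the line, and only Rpn13R and Rpt3R reach above it on 2 arrays.

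The 13 paralogs were dim. In Drosophila several of them, those with a T in their symbol among them, are known from the testis, where they take the place of the standard subunit. Their signals ran from 0.2 to 8.6, and 9 of the 13 were above background on no array and 0 on all 4. None was bright enough for the test, so their ratios carry no call.

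Rpt3R gave 7.1 and 0.9 in the IPs and 8.6 and 2.6 in total RNA, above background in replicate 1 alone. Rpn13R gave 2.8 and 2.4 in the IPs and 4.9 and 8.0 in total RNA. Its IP signals were not above background on either array and its total RNA signals were on both, so total RNA was at least 1.34-fold higher on the log2(signal + 0.8) scale used for ratios, a bound set by the background. Prosbeta4R1 was above background once, with 5.9 in the replicate 1 total RNA and 0.2 to 0.6 elsewhere. Prosalpha6T stood at 4.5 in the replicate 1 IP, just above background, and at 0.8 to 2.6 on the other arrays. Prosalpha3T gave 2.0 and 3.7 in the IPs and 3.5 and 0.3 in total RNA, never above background, and Rpn12R reached 4.2 in the replicate 2 IP. The remaining paralogs were Prosalpha4T1, Prosalpha4T2, Prosbeta2R1, Prosbeta2R2, Prosbeta4R2, Prosbeta5R1 and Rpt4R, with no signal above 2.9. Whether a probe for a paralog also binds the RNA of the standard gene was not tested. A probe set shared by Prosalpha1 and its copy Prosalpha1R, which has 2 symbols and is outside the rule, gave 3.9 and 3.0 in the IPs and 4.3 and 4.8 in total RNA.

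The genes that feed and serve the proteasome were read from fixed lists in the same fit. No gene of these pathway lists passed the test in either direction. Ubiquitin itself is encoded by polyubiquitin genes and by fusions to ribosomal proteins, and together with the E1 and E2 enzymes that charge and pass it on, 12 of the 20 listed genes were found and 6 tested, with a median log2 ratio of 0.29. The conjugating enzyme Ubc2 had the highest ratio at 2.57 and 1.05, on total RNA signals of 0.5, and the conjugating partner Uev1A the lowest at -0.48 and -2.51, with IP signals of 3.3 and 0.5, under background. The polyubiquitin gene Ubi-p63E gave 28.9 and 19.7 in the IPs and 45.8 and 23.7 in total RNA.

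Among the E3 ligases, which choose the substrate, 14 of the 23 genes found were negative in both replicates (60.9%, against 25.7% of all probe sets) and 3 positive in both (median -0.39; 9 tested, 0 called). Of these 23 genes 8 were above background on no array, among them Cul5, Nedd4, Smurf, ari-1, fzy and hiw of those negative in both, so the signs of those come from signals under background. The values at the ends of the list rest on such signals too: Cul3, a cullin scaffold, gave 0.9 and 0.5 in the IPs and 9.6 and 1.2 in total RNA, and sina, at the other end, gave 5.8 and 8.7 against 4.1 and 0.2. The brighter ligases had small ratios, among them ari-2 with 17.4 and 20.5 in the IPs and 26.6 and 29.5 in total RNA, and Ufd4 with 28.3 and 25.5 against 41.1 and 32.6. Both have IP signals below all total RNA signals. Roc1a, the brightest, went the other way, with 51.5 and 35.5 in the IPs and 35.5 and 29.1 in total RNA. Of the 9 tested ligases Cul1, Cul2, Ufd4, Su(dx), STUB1, ari-2 and Ube3a, above background on all arrays, were negative in both replicates. Among all tested probe sets 30.7% were. SkpA had ratios of 0.01 and -0.36.

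Among 18 deubiquitinating enzymes, of which 7 were tested, the median was 0.09, and Usp10 stood highest. It gave 10.9 and 32.1 in the IPs and 3.0 and 16.3 in total RNA, so that its log2 ratios were 1.62 and 0.94, with an adjusted p of 0.158 in limma. At the other end, CYLD gave 0.4 and 3.1 in the IPs and 5.0 and 2.9 in total RNA, above background on 1 array, so its place there is not firm. Of the deubiquitinating enzymes that sit on the proteasome, Usp14 gave 7.3 and 4.7 in the IPs and 7.8 and 8.6 in total RNA, and Uch-L5, the partner of Rpn13, stayed under background at 1.5 to 3.5.

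Of the assembly factors, regulators and activators 13 of 21 were found and 6 tested (median -0.17). Sem1, a lid subunit whose symbol lies outside the naming rule, had the highest ratio of that list, with 48.2 and 22.4 in the IPs and 42.8 and 17.2 in total RNA. It was the lower in replicate 2 on both kinds of array, as were 15 of the 26 subunits. The lowest ratio was that of CG8858 at -2.69 and -0.66, where the replicate 1 IP was under background at 0.8. The core assembly chaperone Pomp gave 9.8 and 7.5 against 8.2 and 10.4, and cnc, the fly relative of the factor that switches on proteasome genes when the proteasome is impaired, gave 2.3 and 4.7 in the IPs and 1.7 and 4.5 in total RNA.

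The shuttle and extraction factors, which carry or pull ubiquitin-tagged proteins to the proteasome, had a median of -0.10 over 11 genes, 8 of them tested. Their main ATPase TER94 gave 22.5 and 13.2 in the IPs and 20.4 and 15.9 in total RNA. Its cofactor p47 had the highest ratio, 1.79 and 1.17, with no signal above background, and Hrd3, of the ligase complex at the endoplasmic reticulum, the lowest at -0.57 and -1.18. Medians were -0.13 for the 9 COP9 genes, between CSN8 (0.63 and 0.65) and CSN3 (-0.13 and -1.75), and -0.50 for the 8 CCT genes, between CCT4 (2.94 and 1.48) and CCT6 (-3.01 and -1.78). These extremes all rest on at least 1 signal under background.

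**Figure D5:**
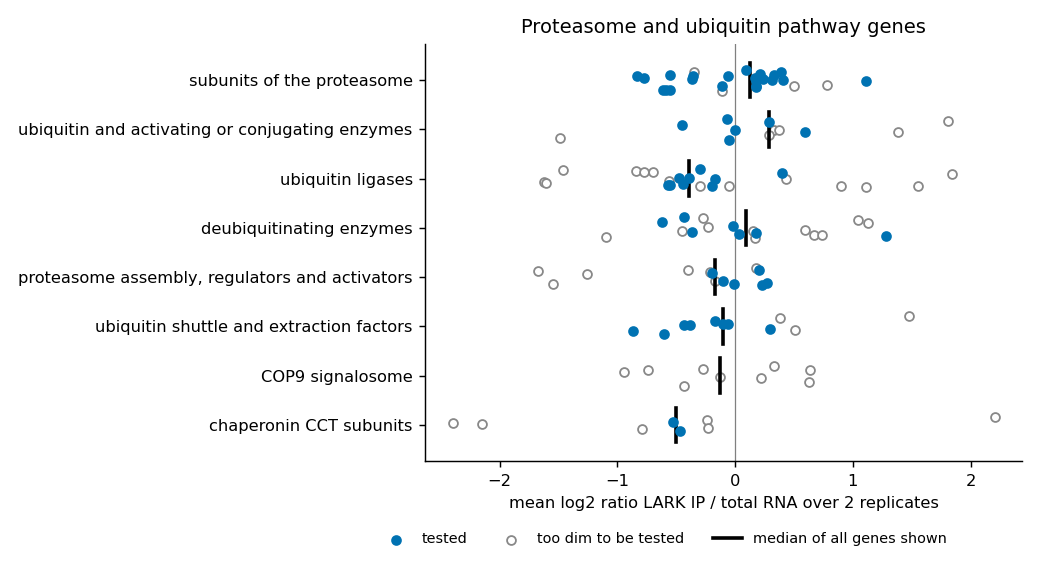
Mean log2 ratio of LARK IP to total RNA over the 2 replicates for the 26 subunit genes and for each pathway list; filled points were tested, open points were too dim, and the black bar is the median of all genes shown in the row. The subunits spread from -0.83 to 1.11 around a median of 0.13, no point passed the test, and the widest spreads belong to open points.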

How the data were processed

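The deposited table holds MAS5 signal intensity on a linear scale for 14010 probe sets of the Affymetrix Drosophila genome array, which the authors computed with default settings and scaled to 1 target intensity per array, so a change shared by all transcripts is removed. The trimmed mean, without the outer 2%, was 5.00 on every array. Detection calls were not used. The 44 control probe sets were left out, and probe sets were named from the platform annotation, which gave 1 symbol for 12442, several for 327 and none for 1197; all 39 member symbols matched RefSeq. Of 41 member probe sets, the one with the highest mean log2 signal was kept per gene.

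Log2(signal + 0.8) was fitted with limma (version 3.58.1, R version 4.3.3; lmFit, eBayes with a trend) on the top 25% of probe sets by mean, with the replicate as a block, since the IP and total RNA of a number come from 1 lysate by the series description (correlation of their deviations 0.36). The pseudocount understates ratios of low signals. The threshold was an adjusted p of 0.05. Each probe set has 1 residual degree of freedom and 7.84 prior ones, and 2 arrays per group limit the precision. An exact test of 2 against 2 that ignores the pairing by lysate cannot go below 0.33, and one that keeps it cannot go as low. On simulated data for this comparison (3492 probe sets, 10 runs) the fit recovered 18.4% of log2 shifts of 1, 72.4% of shifts of 2 and 94.2% of shifts of 3. The simulated noise was normal and drawn from the variance model of the same fit, so recovery in the real data may be lower. The 2 arrays of a replicate share 1 scan day and the replicates differ in it. Every member is named; of each pathway list the highest and lowest ratio is named, and others chosen for their role after their values were seen. The members and lists were chosen with earlier results of these data known. Alternatives were the pseudocount, filters, quantile normalization, the block, the variance trend, the probe set rule and leaving out each array. Leaving out an array also left out the block.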

Additional observations from a re-analysis of the deposited data

How the results depend on the processing

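Calls among the members stayed at 0 higher and 0 lower under each alternative run, the fit with no replicate block and the fit without a filter on dim probe sets, which tested all 39, included. The calls over all probe sets did not hold in this way. The 94 higher calls became 12 after quantile normalization, 1 with no variance trend, 0 with no replicate block or when any 1 array was left out. The 6 lower calls became 16 with 4 times the pseudocount, 2 with none, and 0 with a top 15% filter, quantile normalization, no variance trend, no replicate block or when any 1 array was left out. The fits with 1 array left out also had no replicate block, so the 2 changes are not separate there. The cause was not tested. Of the ratios of at least 2 in both replicates, 129 higher and 27 lower, 994 and 1000 were counted with no floor; 74 lower with a top 25% floor and 6 lower with 4 times the pseudocount.

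The median log2 ratio of the 26 subunits ran from -0.35 to 0.40 when any 1 array was left out. This range and those below with an array left out come without the lysate block, so they hold part of the difference between lysates. The core minus regulatory difference of -0.20 was -0.17 with 4 times the pseudocount, -0.22 with none and after quantile normalization, -0.09 with the mean over all probe sets of a gene, and -0.31 to -0.02 with 1 array left out. The alpha minus beta difference of -0.63 was -1.20 to -0.28 with 1 array left out. Of the 22 tested members the sign of the ratio differed in 7 without LARK IP replicate 1 and in 7 without total RNA replicate 2. It differed in 4 without LARK IP replicate 2, in 2 without total RNA replicate 1, and in 0 under changes of pseudocount or normalization. A change of filter, block or trend leaves the ratio itself as it is, so the sign could not differ there. With the mean over all probe sets of a gene the sign differed in 1 of 2 members, Prosbeta6, which went from -0.11 to 0.11. With 2 arrays per group and signals near background, log2 ratios of 1 were mostly not detectable.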
